A study of Mus musculus with 6 samples.

Results

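Rag2-deficient pro-B cells were compared with mouse embryonic fibroblasts (MEF) to ask how the heavy chain locus is folded in B-cell progenitors. The comparison uses 4 of the 6 libraries of the series: 2 titled as pro-B cells and 2 titled as MEF, each chosen by its title. The pro-B cells came from bone marrow, carried the Rag2 deficiency and had been expanded in IL7 for 4 days. The MEF were taken straight from culture, and their labels name no Rag2 genotype. The labels give no strain or age for either group. Cell type, genotype as labelled and culture condition cannot be told apart in this design. The assay counts DNA junctions and gives no expression, so the labelled cell types could not be checked against marker genes. The other 2 libraries are of resting splenic B cells. They helped to set which primer pairs were tested, the scaling of counts and the shared estimate of the spread. With the 4 libraries alone, 11543 Igh pairs were tested in place of 11940, and their median log2 difference was 0.125 in place of 0.03.

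The immunoglobulin heavy chain locus (Igh) lies on mouse chromosome 12 and is read from its distal V genes towards its constant region genes. Rag1 and Rag2 join a D segment to a J segment and then a V segment to the DJ join, so cells without Rag2 keep the unrearranged order of the locus. Beyond the constant region genes lies the 3' regulatory region (3'RR), a cluster of enhancers that ends in a block of binding sites for CTCF, a protein that holds the bases of chromatin loops. An intronic enhancer separates J from Ighm, and IGCR1, a pair of CTCF sites between the V and D segments, is known to shield the D segments from the V genes.

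Chromosome conformation capture carbon copy (5C) counts ligation products between restriction fragments that lay close together in fixed chromatin. Each count belongs to 1 forward and 1 reverse primer, named here FOR or REV with the number of its HindIII fragment. The 112 forward and 113 reverse primers gave 12656 Igh pairs between 114339456 and 117350186 on chromosome 12 (mm9). A gene desert on chromosome 5 (133174214 to 133472010) served as control with 600 pairs. Fragments were placed in 10 regions by position, from the 3' flank over the 3'RR, the constant, D-J and V-D regions and 4 blocks of V genes to the 5' flank. Region edges and landmark fragments follow approximate textbook positions. By these positions the D-J region (114656273 to 114691293) starts on the Ighm side of REV 81, the intronic enhancer fragment (114664824 to 114667095). Contacts called D-J here therefore include a stretch from FOR 76 to FOR 80 on the Ighm side. The constant region as drawn (114486613 to 114656272) leaves that stretch out. Reads of pairs are given as counts, or as CPM, that is counts per 1000000 tested cis reads after TMM scaling.

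The libraries held 22049248 to 24191175 valid read pairs, of which 91.3% to 93.4% joined 2 Igh fragments. The pro-B replicates differed from each other more than the MEF replicates did, so each library is given separately. Across Igh pairs, the log2 CPM of the pro-B libraries correlated at 0.82 and those of the MEF libraries at 0.948 (Pearson's r over primer pairs, which are not independent). The value for pro-B replicate 1 with MEF replicate 1 was 0.911, above that of the pro-B libraries with each other. The standard deviation of the log2 difference between replicates was 1.37 in pro-B cells and 0.67 in MEF. Pro-B replicate 2 had 1641 Igh pairs without a read, against 376 to 448 in the other 3 libraries. A pair with 0 reads allows up to 3 reads in that library. The libraries are called biological replicates in the series description. The p-values of the fits below rest on a spread between replicates pooled over the pro-B, MEF and resting B libraries, 2 samples per group. This pooled spread can lie below that of the pro-B replicates.

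Contacts of the 3'RR with the D-J, constant and proximal V regions were higher in both pro-B libraries. Reads were summed over all primer pairs that join 2 regions, and 5 of the 55 region pairs passed the threshold of 0.05 as higher (9.09%), 3 of them with the 3'RR and 2 with its 3' flank. None passed as lower. The 3'RR (114434637 to 114480873) shared with the D-J region (114656273 to 114691293) 4624 CPM in pro-B replicate 1 and 3282 in replicate 2, where the MEF libraries had 856 and 751. Both pro-B libraries lay well above both MEF libraries, by 2.30 ± 0.28 on the log2 scale (SE, n = 2 per group; edgeR's quasi-likelihood test, Benjamini-Hochberg adjusted p = 0.000886). With the proximal V genes (114809751 to 115096374), the V segments nearest to D, the 3'RR shared 6531 and 4028 CPM against 1574 and 1838, a log2 difference of 1.63 ± 0.29 (edgeR, adjusted p = 0.00866). With the constant region genes (114486613 to 114656272) it shared 29121 and 15959 CPM against 7726 and 6748, a log2 difference of 1.64 ± 0.33 (edgeR, adjusted p = 0.0144). In these 3 region pairs replicate 1 showed the larger excess.

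The 3' flank (114339456 to 114420752), which lies outside the 3'RR and beyond its CTCF block, was the partner in the other 2. It shared 744 and 655 CPM with the D-J region in pro-B cells against 282 and 339 in MEF (log2 1.17 ± 0.26; edgeR, adjusted p = 0.0227). With the proximal V genes it shared 1286 and 1899 CPM against 630 and 849 (log2 1.11 ± 0.29; edgeR, adjusted p = 0.0456). Replicate 2 showed the larger excess with the proximal V genes and replicate 1 with D-J. The same flank with the 3'RR itself (log2 0.89), the V-D region (1.04) and the middle V genes (0.89) did not pass (edgeR, adjusted p = 0.0581, 0.0672 and 0.0802), while DESeq2 called all 3. The calls depended on the MEF libraries: without MEF replicate 2 none of 55 passed, with the 5 log2 differences still at 1.24 to 2.13 (edgeR, adjusted p = 0.107 to 0.136), and without MEF replicate 1 only the 3'RR with D-J did. Without pro-B replicate 1 or 2 the 5 differences kept their sign. With 1 library left, a group adds nothing to the estimated spread. The pro-B replicates differed most (standard deviation of the log2 difference 1.37, against 0.67 in MEF and 0.60 in resting B). Calls made without 1 library, here and below, therefore cannot show whether a result holds across the replicates of that group. Both calls of the 3' flank were also lost without either resting B library (edgeR, adjusted p = 0.0782 to 0.0858), with total or gene desert reads as library size (0.322 to 0.596) and in the 4 libraries alone (0.163). With the distance decay removed the 3' flank with the proximal V genes did not pass either (edgeR, adjusted p = 0.0507). When log2 values were averaged over primer pairs in place of summing reads, the 3' flank differences were 0.52 and 0.41 (limma, adjusted p = 0.0790 and 0.0664). Total reads as library size ended the call of the 3'RR with the proximal V genes (edgeR, adjusted p = 0.158), and with gene desert reads the one call left was that of the 3'RR with the constant genes (edgeR, adjusted p = 0.0562 with D-J and 0.369 with the proximal V genes).

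**Figure D1:**
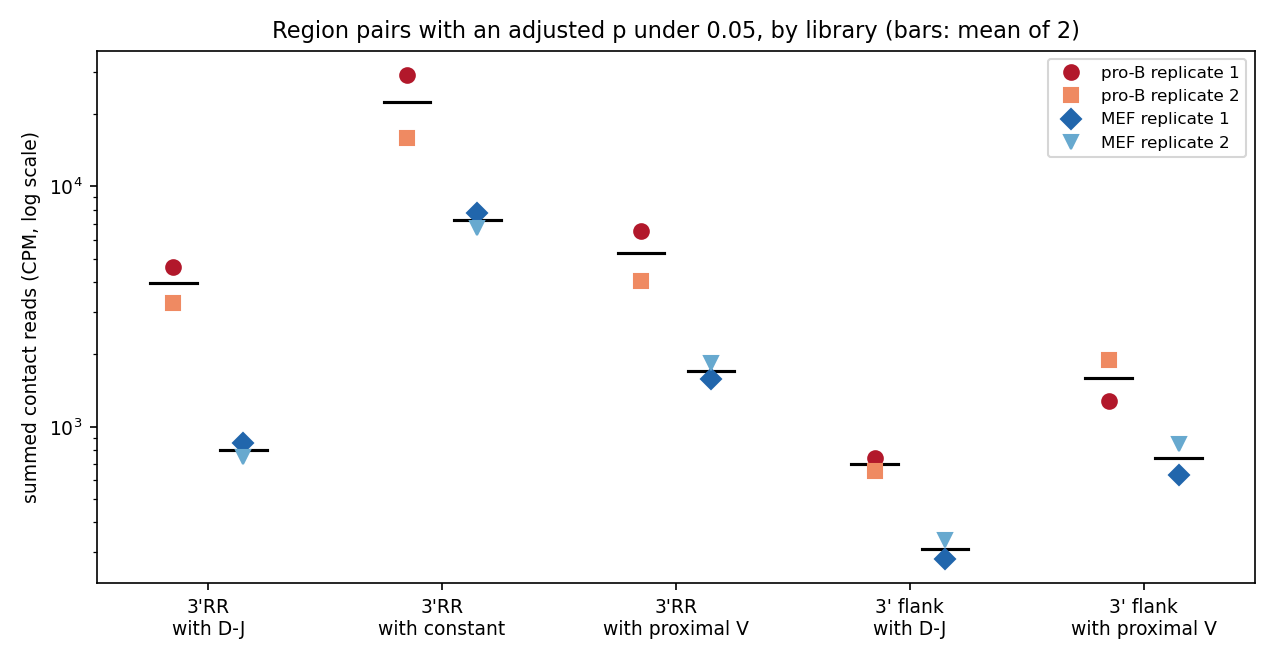
Summed contact reads (CPM, log scale) of the 5 region pairs with an adjusted p under 0.05, with 1 point per library and a bar at the mean of each pair of replicates. In each of the 5, both pro-B points lie above both MEF points, and the gap is widest for the 3'RR with D-J (4624 and 3282 against 856 and 751 CPM).

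**Figure D2:**
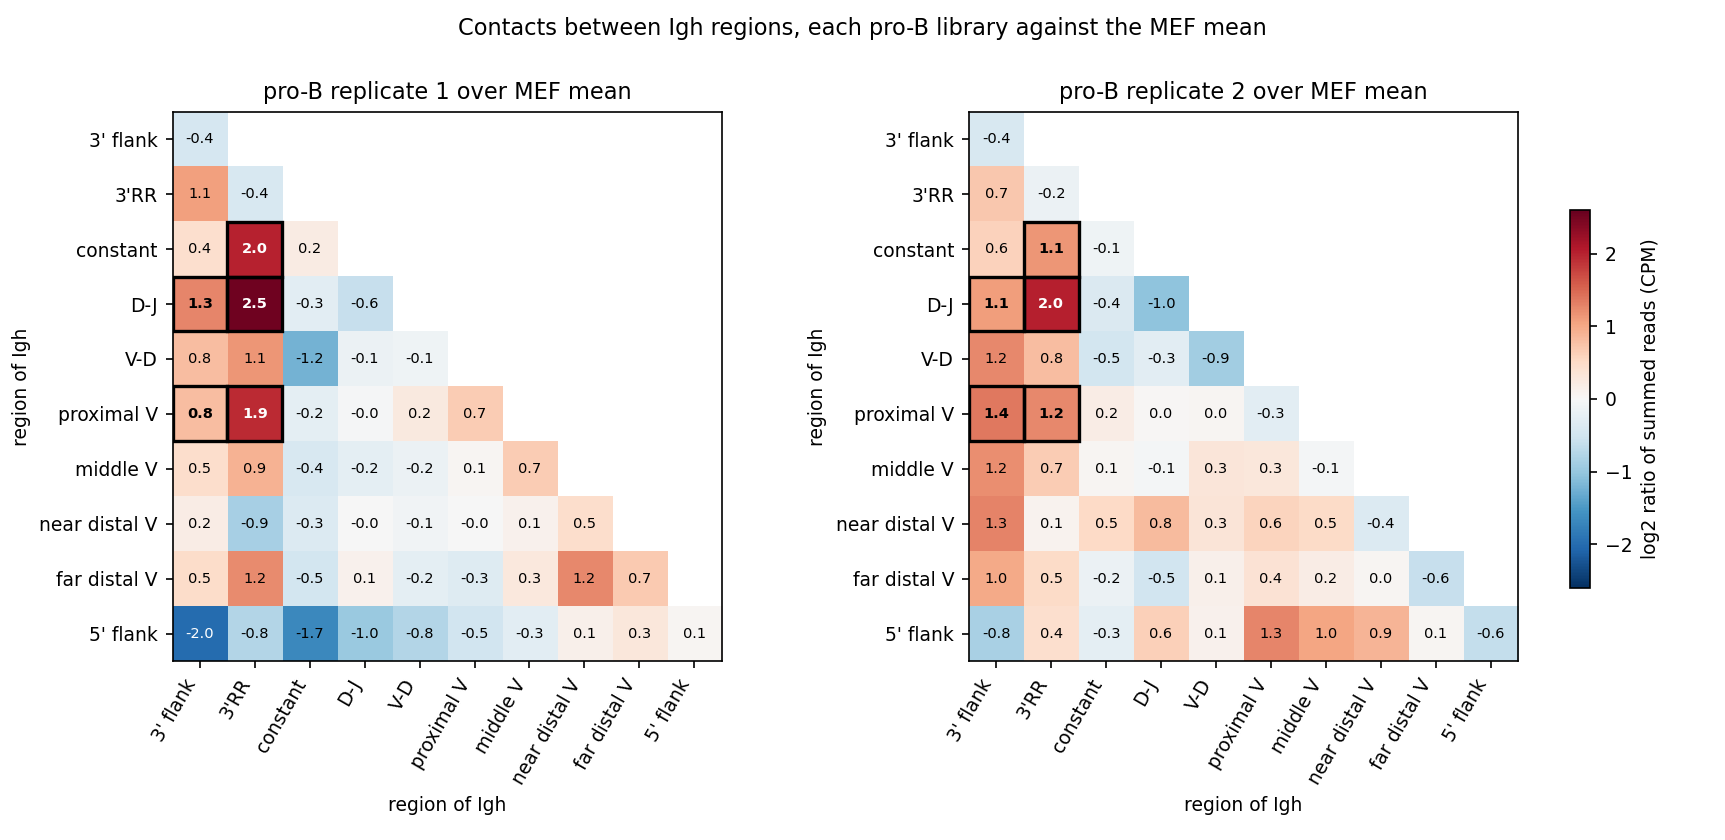
Log2 ratio of the summed reads (CPM) of each region pair in pro-B replicate 1 (left) and replicate 2 (right) over the mean of both MEF libraries; both axes list the 10 regions in order along the locus, and frames mark the 5 region pairs past the threshold. The 3'RR with D-J has the largest positive ratio in both maps (2.53 and 2.03), whereas the V regions with themselves and the 5' flank row differ between the 2 maps.

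Within the 3'RR the excess was uneven, and with the D-J region 1 fragment carried most of it. Not every 3'RR fragment had an excess. REV 29 overlapped MEF with D-J (31.3 and 55.1 CPM against 35.6 and 51.0) and with the proximal V genes (75.0 and 120 against 87.9 and 110). FOR 31 overlapped MEF with the proximal V genes (188 and 285 against 191 and 215). REV 27 (114459545 to 114465908), in the middle of the 3'RR on the side of its inner enhancers, shared 3135 and 1981 CPM with the D-J forward fragments in pro-B cells against 236 and 281 in MEF. That was 67.8% and 60.4% of all 3'RR reads with D-J in the pro-B libraries and 27.6% and 37.4% in the MEF libraries. All 7 of its D-J partners had more CPM in both pro-B libraries than in both MEF libraries. The same held for 30 of all 52 tested pairs of the 3'RR with D-J (57.7%) and for 19.3% of all tested Igh pairs. Summed over all partners more than 50 kb away, REV 27 held 15249 and 9153 CPM in pro-B cells against 3189 and 3464 in MEF, the third largest ratio of 225 fragments. In such totals 33.3% of fragments had both pro-B libraries above both MEF libraries and 8.89% had them below. The larger ratios of FOR 451 and REV 300 came from 1 pair that was high only in pro-B replicate 2.

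Among the D-J partners of REV 27, the log2 difference was largest on the Ighm side of the intronic enhancer and smaller on the J side. FOR 78 x REV 27 had 15907 and 14925 reads in the pro-B libraries and 620 and 1137 in the MEF libraries. This pair had the lowest p of all Igh pairs, with a log2 difference of 4.31 ± 0.42 (SE, n = 2 per group), and did not pass after adjustment over 11940 pairs (edgeR, adjusted p = 0.0923). FOR 78 (114659959 to 114662158) lies on the constant region side of REV 81, the fragment assigned to the intronic enhancer (114664824 to 114667095), and so towards Ighm. FOR 76, FOR 78 and FOR 80, all on that side, shared 417, 908 and 431 CPM with REV 27 in pro-B replicate 1. In pro-B replicate 2 they shared 375, 634 and 214 CPM. The sums over its 7 D-J partners were 3135 and 1981 CPM. FOR 76 x REV 27, the next forward fragment towards the constant genes, had 7314 and 8821 reads against 276 and 676 (log2 4.28 ± 0.42; edgeR, adjusted p = 0.0923). FOR 80 and FOR 82, which flank REV 81 directly, had 7546 and 5036 reads against 243 and 807, and 7346 and 5850 against 483 and 587. FOR 84 (114670120 to 114672758), on the J side, had 10545 and 7445 reads against 952 and 2227. The log2 difference was 3.88 for FOR 80, 3.75 for FOR 82 and 2.75 for FOR 84, and then 0.93 for FOR 86 and 1.92 for FOR 91 further into the D segments. REV 27 with REV 81 itself could not be read, since both are reverse primers. In the constant region, FOR 74 shared 262 and 295 CPM with REV 27 against 29.4 and 40.9. FOR 58, further away, shared 29.5 and 15.3 CPM against 21.3 and 23.1.

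Taking REV 27 out lowered the difference of the 3'RR with D-J and with the proximal V genes but not with the constant region, and all 3 still passed, in a check added after its values were seen. The remaining 3'RR fragments shared 1489 and 1300 CPM with the D-J region in pro-B cells against 620 and 470 in MEF, and the log2 difference fell from 2.30 to 1.36 ± 0.27 (edgeR, adjusted p = 0.0235). With the proximal V genes it was 1.12 ± 0.22 in place of 1.63, and with the constant region 1.69 ± 0.37 beside 1.64 (edgeR, adjusted p = 0.0235 and 0.0303). Leaving out instead the pair with the most reads of each region pair gave 2.06, 1.51 and 1.10 (edgeR, adjusted p = 0.00155, 0.00589 and 0.00589). In the constant region that pair was FOR 28 x REV 33, neighbours 19 kb apart with 282315 and 52627 reads against 18937 and 24843.

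REV 27 also stood out in its contacts with the proximal V genes. It shared 4531 and 2292 CPM with them in pro-B cells against 773 and 916 in MEF. FOR 126 (114823610 to 114829182), near the D side of the V genes, was its strongest partner there, with 2116 and 1241 CPM against 415 and 472. FOR 147 (114897147 to 114900764) followed with 1684 and 630 CPM against 199 and 219. In the constant region, FOR 68 (114638362 to 114643285), towards the D-J end, shared 698 and 799 CPM with REV 27 against 57.9 and 76.9. Against fragments of the 3'RR itself, REV 27 had 6093 and 5904 CPM against 6377 and 4974, so the groups overlapped there. With the middle, near distal and far distal V genes the pro-B values were 1322, 1411 and 953 CPM in replicate 1 and 647, 496 and 299 in replicate 2, and the MEF values 465 to 541, 332 to 382 and 255 to 267. The FOR 126 and FOR 147 fragments were picked out after their values were seen.

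**Figure D3:**
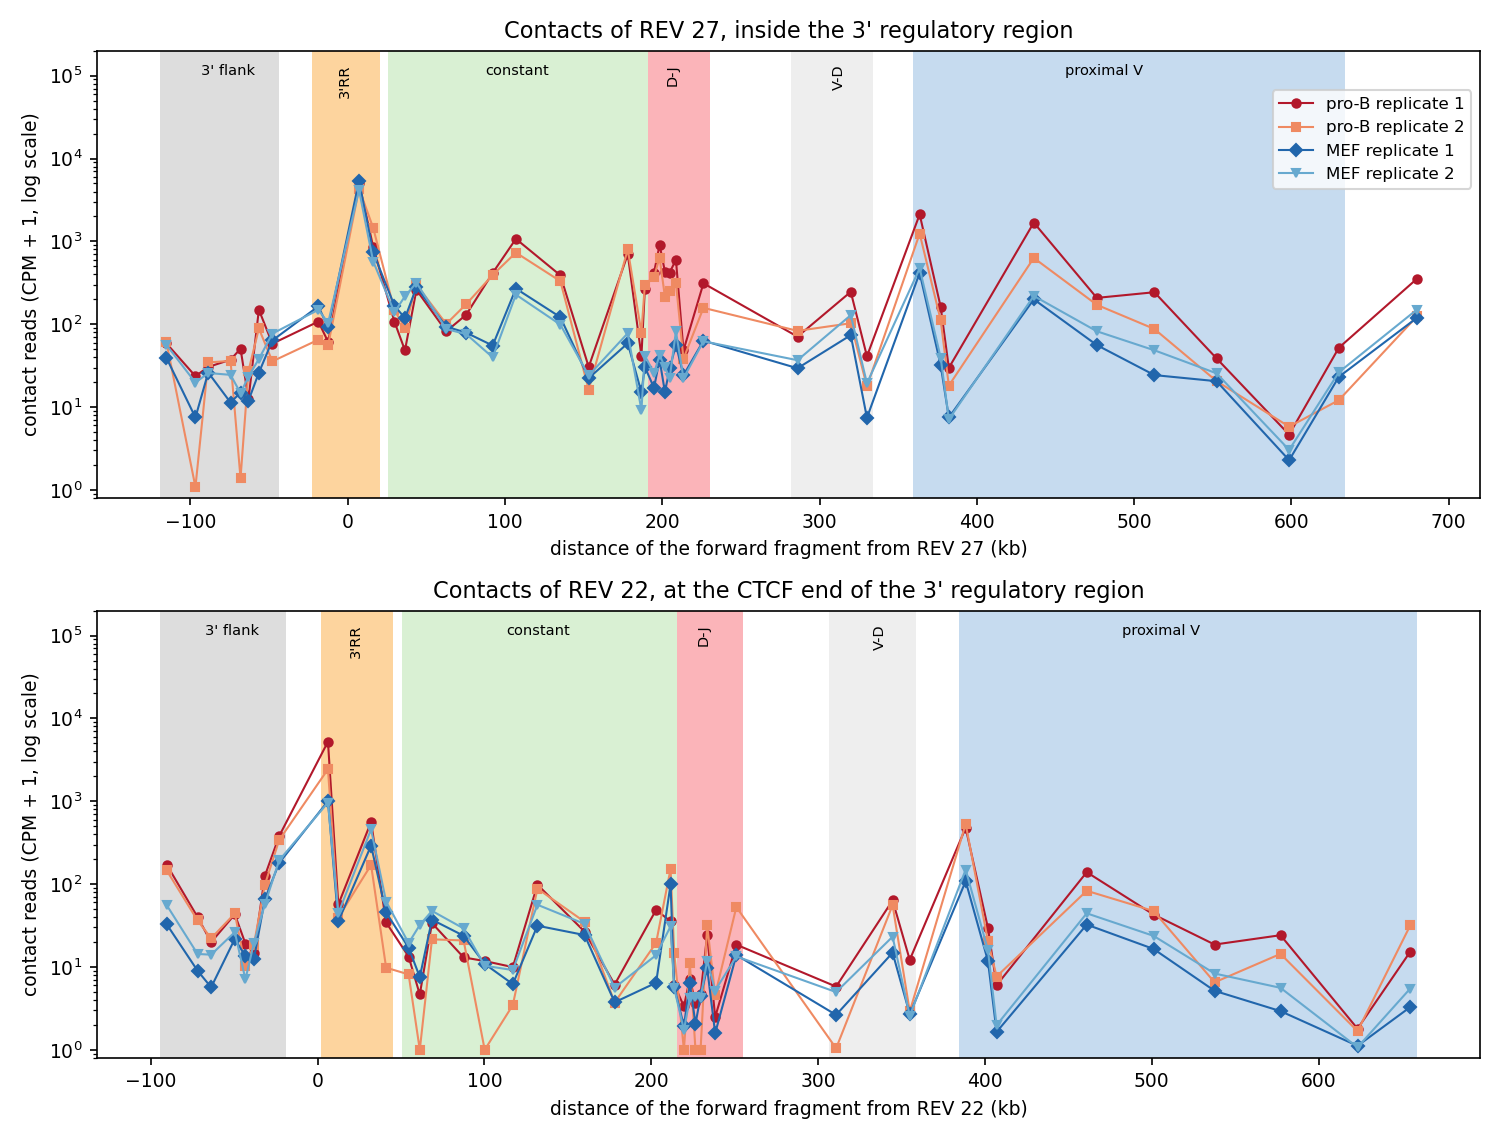
Contacts of REV 27 (top) and REV 22 (bottom) with forward fragments up to 700 kb away, as CPM + 1 on a log scale against the distance from the viewpoint fragment in kb, with 1 line per library and shaded regions. In the top panel both pro-B lines run above both MEF lines across the D-J region (3135 and 1981 against 236 and 281 CPM in sum), while in the bottom panel the lines cross there and separate over the proximal V genes (747 and 736 against 174 and 247 CPM).

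The CTCF end of the 3'RR had more reads in both pro-B libraries with each block of V genes and with D-J. REV 22 (114434637 to 114441221) and FOR 23 (114441222 to 114447060) were the fragments assigned to it. Over all tested Igh pairs, both pro-B libraries lay above both MEF libraries in 19.3% and below them in 22.8%. For REV 22 the same was true of 56 of 108 tested partners (51.9%) as higher and 10 as lower, and for FOR 23 of 66 of 105 (62.9%) and 5. REV 22 shared with the proximal V genes 747 and 736 CPM against 174 and 247, and FOR 23 shared 241 and 150 against 25.6 and 36.3. With the near distal V genes REV 22 had 187 and 351 CPM against 73.5 and 90.6, and FOR 23 had 101 and 168 against 25.4 and 28.5. With the far distal V genes REV 22 had 112 and 96.3 CPM against 49.4 and 77.0. With the D-J region, REV 22 had 57.3 and 96.3 CPM against 33.0 and 38.0, and FOR 23 had 44.9 and 48.7 against 23.2 and 29.8. The difference between REV 22 and REV 27 in their D-J contacts was not tested.

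Single pairs of the CTCF end reached far along the locus. FOR 126 x REV 22, over 388 kb, had 8366 and 12494 reads against 1836 and 4072 (log2 1.98 ± 0.37; edgeR, adjusted p = 0.334). FOR 23 x REV 187, over 624 kb, had 1222 and 814 reads against 49 and 160 (log2 3.58 ± 0.63; edgeR, adjusted p = 0.334). FOR 23 x REV 545, over 1904 kb, had 664 and 3111 reads against 147 and 315. REV 4 (114353716 to 114363543), a 3' flank fragment chosen after its values were seen, had more CPM in both pro-B libraries with every region but the 5' flank. It shared 304 and 387 CPM with the proximal V genes against 75.7 and 93.2, and 48.7 and 21.5 CPM with D-J against 17.5 and 19.0. With the V-D region it had 52.4 and 49.7 CPM against 7.25 and 8.32, and with the 3'RR 371 and 197 against 48.5 and 55.8. FOR 23 x REV 4 had 4370 and 2884 reads against 130 and 311. FOR 115 x REV 4, with the space between V and D, had 756 and 817 reads against 59 and 128 (log2 3.26 ± 0.50; edgeR, adjusted p = 0.264).

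FOR 28 (114465909 to 114474052), next to REV 27, shared 892 and 471 CPM with the D-J region against 208 and 167. Its pairs with the D-J end of the constant region were the clearest. FOR 28 x REV 75 had 9914 and 12461 reads against 1128 and 1176 (log2 3.33 ± 0.40; edgeR, adjusted p = 0.153). FOR 28 and the proximal V genes shared 576 and 230 CPM against 256 and 255, so that replicate 2 lay below MEF. FOR 25 (114449888 to 114450784) shared 21.1 and 53.3 CPM with the far distal V genes against 15.1 and 8.94, and its reads with the near distal V genes were lower in both pro-B libraries through a single pair. FOR 25 x REV 545 had 25144 and 21126 reads against 113701 and 81320. This pair and FOR 31 x REV 545 (22244 and 169302 reads against 96787 and 41877) made up most of the 3'RR reads with the near distal V genes. In sums that region pair had a log2 difference of -0.31, although 69 of its 159 tested pairs (43.4%) were higher in both pro-B libraries and 15 were lower. Averaged over its primer pairs on the log2 scale the difference turned to 0.44 and passed as higher (limma, adjusted p = 0.0330).

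Ligation of a fragment to the gene desert on the other chromosome was taken as a measure of its copies and recovery. REV 27 had 2898 and 5010 trans CPM (CPM computed on the Igh-to-desert reads) in pro-B cells against 3234 and 2126 in MEF, and the groups overlapped. FOR 78 had 684 and 569 trans CPM against 1983 and 1516, lower in both pro-B libraries, where its contacts with REV 27 were higher. These values of FOR 78 rested on 93 and 600 reads against 626 and 556. Pro-B replicate 1 held 122047 Igh-to-desert reads in all, against 462793 to 703564 in the other libraries. FOR 126 had 39060 and 36240 against 39510 and 31210. REV 22 had 522 and 1274 against 488 and 185, higher in both pro-B libraries, though only just in replicate 1. Its reads were few there, with 71 and 1344 against 154 and 68. FOR 23 had 905 and 612 trans CPM against 548 and 314. Over the 3'RR, 8 fragments gave a median of 0.69 on the log2 scale, and 3 lay below 0. None of 224 fragments passed (0%; 31 at an unadjusted p under 0.05; edgeR), with 7 by DESeq2, and the part of fragment recovery in the contacts of REV 22 and FOR 23 was not tested.

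The intronic enhancer fragment REV 81 did not show the broad excess of the 3'RR fragments. Of its 111 tested partners, 23 were higher in both pro-B libraries (20.7%) and 28 lower (25.2%), close to the share of all Igh pairs, with a median log2 difference of -0.07. Its 3'RR partners were an exception, with 633 and 363 CPM in pro-B cells against 161 and 114 in MEF. FOR 31 x REV 81 had 3130 and 4299 reads against 814 and 1124 (log2 2.03 ± 0.40; edgeR, adjusted p = 0.334). REV 81 and the proximal V genes shared 581 and 443 CPM against 401 and 468, and the groups overlapped. Within the D-J region it had fewer reads in pro-B cells, 24447 and 15135 CPM against 73201 and 43595, mostly with its direct neighbours FOR 80 and FOR 82. The D-J region with itself held 82688 and 61027 CPM against 156743 and 94717, a difference of -0.81 ± 0.46 on the log2 scale that did not pass (edgeR, adjusted p = 0.317). It passed as lower with total reads as library size and with the distance decay removed.

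IGCR1, covered by REV 94 (114722112 to 114723013), had more partners above MEF than below. Of 106 tested partners 43 were higher in both pro-B libraries (40.6%) and 11 were lower (10.4%), with a median of 0.57. It shared 232 and 260 CPM with the D-J region against 92.8 and 68.8, and 107 and 142 CPM with the 3'RR against 27.0 and 40.2. With the proximal V genes it had 535 and 593 CPM against 339 and 277. The V-D region as a whole did not share the excess of REV 94 with D-J. Of its 32 tested pairs with D-J, 17 were lower (53.1%) and 7 higher (21.9%), and the sums overlapped (1531 and 1408 CPM against 2064 and 1324).

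Away from the 3'RR and its 3' flank, contacts between the constant or D-J region and the V genes tended the other way. Of 2537 tested pairs, 246 were higher in both pro-B libraries (9.70%) and 806 lower (31.8%), with a median log2 difference of -0.35 beside 0.03 over all Igh pairs. By library the medians were -0.31 in pro-B replicate 1 and -0.44 in replicate 2, against the MEF mean. In summed reads the groups lay closer together: the D-J region shared 2086 and 2181 CPM with the proximal V genes against 2022 and 2243 (log2 0.00 ± 0.23). Sums with the near distal V genes leaned higher. D-J shared 2449 and 4369 CPM with them against 2878 and 2090 (log2 0.46 ± 0.32), and the constant region had a log2 difference of 0.14. Of 258 tested D-J pairs with the near distal V genes, 56 were higher (21.7%) and 62 lower (24.0%). The constant region with the V-D region held 1189 and 1992 CPM against 2597 and 2953, a log2 difference of -0.80 ± 0.29 (edgeR, adjusted p = 0.0941). None of these region pairs passed in sums with edgeR, while DESeq2 called the constant with the V-D region lower. With log2 values averaged over primer pairs, limma called lower the constant region with the V-D region (adjusted p = 0.0218), with the middle (0.0185), proximal (0.0141), far distal (0.0141) and near distal V genes (0.0488), and the D-J region with the proximal V genes (0.0330). After each library's distance decay was removed the median of the group was 0.13, and it stayed 0.36 below the median of all pairs, which that setting moved to 0.49. The constant with the D-J region also leaned lower, in 76 of 163 tested pairs (46.6%), with 23 higher (14.1%; limma, adjusted p = 0.0154). In D-J with V-D, 17 of 32 were lower (53.1%) and 7 higher (21.9%; limma, adjusted p = 0.0257). Neither passed in sums (edgeR, adjusted p = 0.462 and 0.769). Within the constant region, 61 of 156 pairs were higher (39.1%) and 28 lower (17.9%).

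The 5' flank (117265258 to 117350186), beyond the most distal V genes, had lower median contacts with the other end of the locus in both pro-B libraries. Of 450 tested pairs with the 3' flank, constant or D-J region, 173 were lower in both pro-B libraries (38.4%) and 16 higher (3.56%), with a median of -0.76 (-0.65 in replicate 1 and -0.64 in replicate 2 over the MEF mean). The 3' flank shared 299 and 664 CPM with the 5' flank against 1688 and 701 in MEF, and the constant region 493 and 1312 against 1975 and 1166. The D-J region shared 175 and 526 CPM with it against 339 and 346. In sums replicate 2 thus lay just below MEF for the 3' flank, between the MEF libraries for the constant region and above them for D-J. Neither of the first 2 passed in sums (edgeR, adjusted p = 0.0957 and 0.307), but both passed as lower with log2 values averaged over primer pairs (limma, adjusted p = 0.0185 and 0.0141). DESeq2 called the 3' flank with the 5' flank lower, and so did edgeR without either resting B library. The median of the group was also below that of all pairs with total reads (-0.89) and gene desert reads (-0.75) as library size, and turned to 0.14, or 0.34 below all pairs, once the distance decay was removed. At over 2000 kb, the distance of these pairs, 28.4% of all Igh pairs were lower in both pro-B libraries and 11.1% higher. The 3'RR, left out of this group, did not follow it. Of 67 tested pairs of the 3'RR with the 5' flank, 13 were lower (19.4%) and 4 higher (5.97%), with a median of 0.02. Their medians over the MEF mean were -0.57 in replicate 1 and 0.13 in replicate 2, and their sum differed by -0.04.

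Contacts among the V genes were not called in either direction in sums, apart from the middle V genes with themselves, called higher once the distance decay was removed, and calls made without 1 of the pro-B libraries. Of 4630 tested V-V pairs, 982 were higher in both pro-B libraries (21.2%) and 895 lower (19.3%), both near the share of all Igh pairs. The pro-B replicates pointed in opposite directions in sums within blocks. The far distal V genes with themselves had a log2 ratio over the MEF mean of 0.69 in replicate 1 and -0.61 in replicate 2, and the proximal V genes 0.65 and -0.28. The near distal with the far distal V genes held 52213 and 22673 CPM against 25301 and 18717. The pair FOR 694 x REV 545 alone had 209896 and 101000 of these reads against 59461 and 72860.

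The share of long-range reads did not separate the groups. Pairs over 500 kb apart took 8.26% and 13.3% of Igh reads in pro-B replicates 1 and 2 and 8.13% and 9.31% in MEF. The means differed by 2.08 percentage points (exact two-sided permutation test, p = 0.667, where 2 against 2 libraries cannot go below 0.333). Without pro-B replicate 2 the difference was -0.46. At 0 to 20 kb the shares were 64.1% and 53.3% against 62.8% and 63.7%. Per pair, the mean log2(CPM + 1) at 0 to 20 kb was 8.46 and 7.82 against 8.57 and 8.10.

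In the gene desert, most tested contacts beyond 20 kb were lower in both pro-B libraries. Of 220 tested desert pairs, 126 were lower in both pro-B libraries (57.3%) and 24 higher (10.9%), with a median log2 difference of -0.83. At 0 to 20 kb the median was 0.69, over 44 pairs, while at 100 to 200 kb it was -1.29 and 68.9% of 74 pairs were lower. In the Igh locus the median was -0.13 at 0 to 20 kb and 0.07 at 100 to 200 kb. No desert pair passed (0%; 75 at an unadjusted p under 0.05; edgeR, lowest adjusted p = 0.0701), while DESeq2 called 16 higher and 39 lower. Without the filter on low counts the median over desert pairs was 0.03. Without MEF replicate 2 edgeR called 10, and without pro-B replicate 1 or 2 it called 99 and 43.

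**Figure D4:**
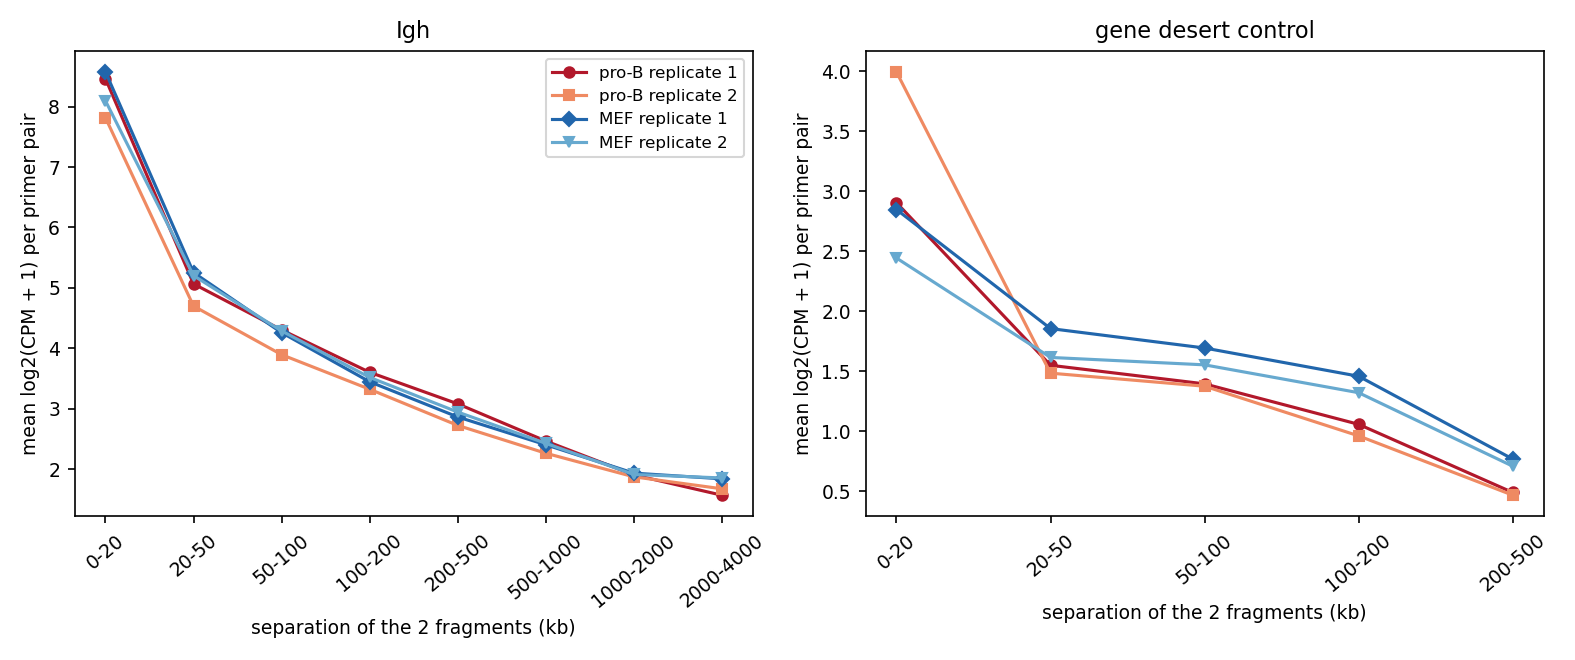
Mean log2(CPM + 1) per primer pair against the separation of the fragments in kb, in the Igh locus (left) and in the gene desert (right), with 1 line per library. The 4 lines lie close together in the Igh locus, while in the desert both pro-B lines drop below both MEF lines beyond 20 kb (1.06 and 0.96 against 1.46 and 1.32 at 100 to 200 kb).

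No single Igh pair passed: 0 of 11940 tested pairs (0%) had an adjusted p under 0.05, with 1094 at an unadjusted p under 0.05 and 160 higher and 135 lower by DESeq2. The remaining 716 Igh pairs had too few reads to test. Without pro-B replicate 1 edgeR called 3800 pairs, and without pro-B replicate 2 it called 215. Taken in order of p among pairs over 100 kb apart, with each fragment used at most once per direction, the first 10 higher pairs included 5 of the 3'RR, described above: FOR 78 x REV 27, FOR 28 x REV 75, FOR 23 x REV 187, FOR 126 x REV 22 and FOR 31 x REV 81. A pair of them linked constant region fragments: FOR 74 x REV 44 had 2260 and 4655 reads against 395 and 601, and FOR 68 x REV 33 had 4172 and 6295 against 1321 and 1475. FOR 399 x REV 235, between the middle and near distal V genes, had 2996 and 5067 reads against 1037 and 1264. FOR 14 x REV 499 had 18 and 106 reads against 0 and 0.

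The first 10 lower pairs mostly linked the 3' end of the locus to V genes or the 5' flank and held few reads in pro-B cells. FOR 329 x REV 90, between D-J and the middle V genes, was the best covered, with 76 and 23 reads against 601 and 1272 (log2 -3.95 ± 0.76; edgeR, adjusted p = 0.334). FOR 103 x REV 831 had 14 and 18 reads against 250 and 136. FOR 36 x REV 435 had 3 and 1 reads against 130 and 215, FOR 513 x REV 83 had 3 and 3 against 83 and 201, and FOR 850 x REV 1 had 3 and 4 against 77 and 112. FOR 510 x REV 15 had 1 and 0 reads against 90 and 120, so MEF was 194-fold higher with a 95% counting interval of 34.4 to 7688. FOR 80 x REV 192, joining D-J to the proximal V genes, had 1 and 2 reads against 77 and 74 (46.4-fold, 15.6 to 228). The intervals cover counting error only.

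**Figure D5:**
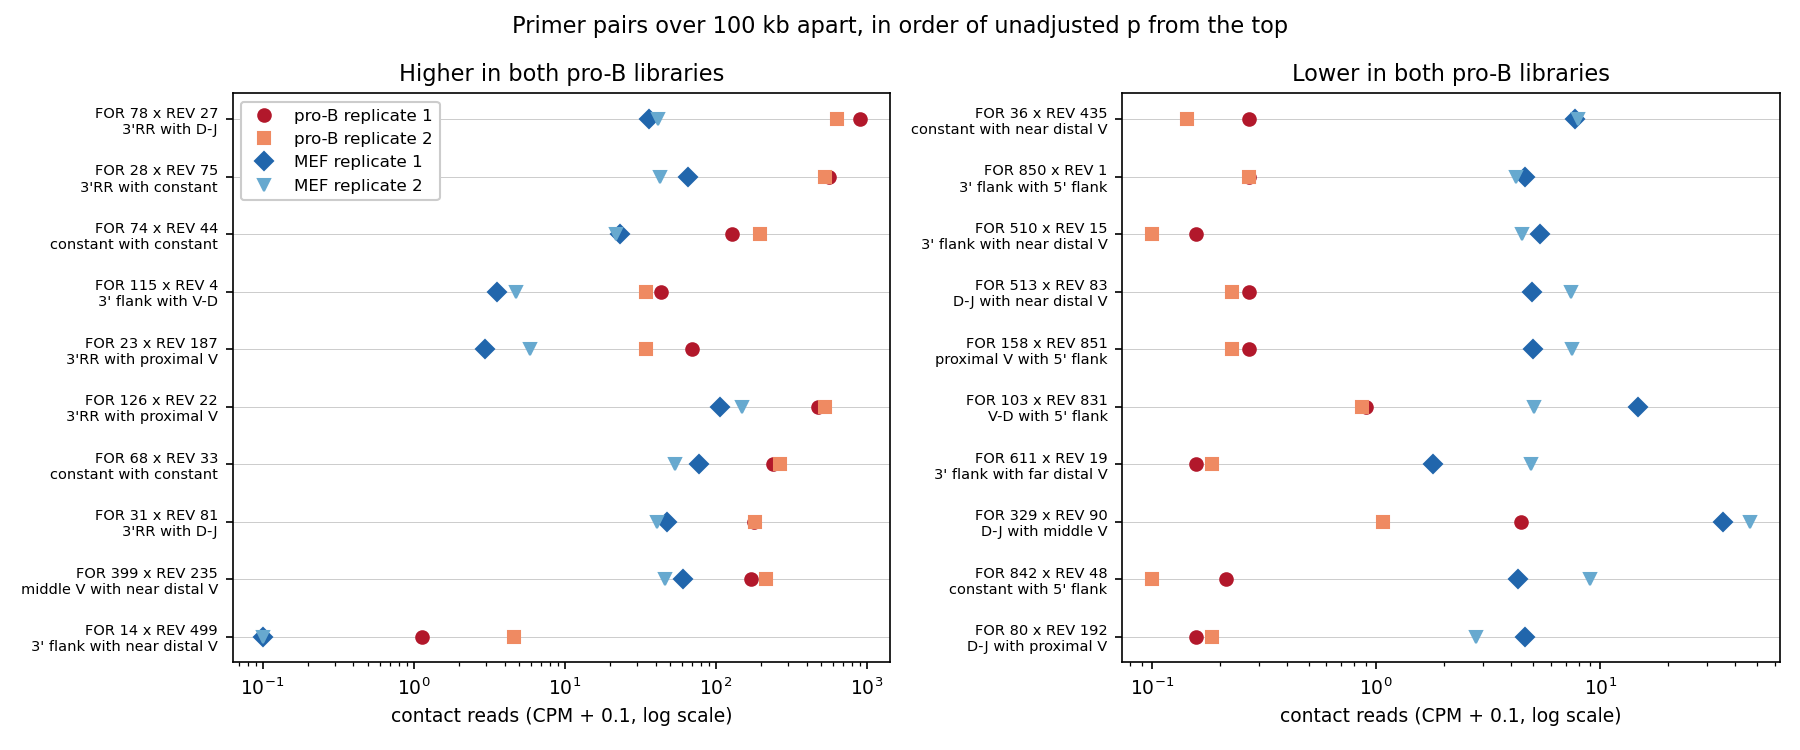
Contact reads (CPM + 0.1, log scale) of the 10 higher and 10 lower primer pairs over 100 kb apart that come first by unadjusted p, with 1 point per library and the region pair under each name. By the choice of pairs the groups do not overlap; the higher pairs reach 908 CPM (FOR 78 x REV 27), while 8 of the lower pairs hold under 0.3 CPM in both pro-B libraries.

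Most strong contacts beyond the distance decay were shared by the cell types. A loop was a pair over 50 kb apart whose reads exceeded a per-library model of separation and primer strength in both replicates (standardised residual 2 or more). Of 12038 pairs, 56 were loops of the pro-B cells and 54 of the MEF, and 40 were loops in both, 71.4% of the pro-B and 74.1% of the MEF loops. For 10 pro-B loops neither MEF library reached the limit, and 4 of these joined the 3'RR to D-J, where MEF had no loop. FOR 78 x REV 27 led with residuals of 5.46 and 5.68 against 0.415 and 0.549. A further 3 lay within the constant region: FOR 49 x REV 33 had 18006 and 26128 reads against 4946 and 7531, and FOR 68 x REV 44 had 11684 and 23307 against 2599 and 2798. FOR 28 x REV 75 and FOR 23 x REV 4 were loops of pro-B cells alone by the same count. Of the MEF loops, 3 had no pro-B library at the limit, with FOR 126 x REV 235 first, whose residuals were 5.62 and 2.55 in the MEF libraries and 0.36 and 1.31 in the others.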

How the data were processed

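Each deposited file gives, per the file headers, uncorrected counts of read pairs for every forward and reverse primer; the headers record no correction for distance or primer strength and no molecular identifiers. The submitters' processing notes name Novoalign and mm9; its version is not given in the sources used. Each library came from its own lane, per the file headers. Pairs not listed were set to 0.

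Cis pairs reaching 10 reads in 2 or more libraries entered edgeR's quasi-likelihood fit (4.0.16, R 4.3.3) of all 6 libraries, with TMM scaling and no term but cell type. Benjamini-Hochberg adjustment ran over Igh pairs, desert pairs, 55 region sums and Igh fragments (summed over the desert) separately. SE is the log2 difference over the square root of F. Single pairs were named by p among pairs over 100 kb apart whose groups did not overlap, 10 per direction, and landmark fragments by up to 3 partners per direction. Loops came from a quasi-Poisson fit per library (spline of log separation with 4 degrees of freedom, primer effects). Regions, landmarks and rules were chosen with earlier results of these data known. DESeq2 (1.42.0) and limma (3.58.1) were alternatives. The tests were checked on simulated data. No sequence of the fragments was used here.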

Additional observations from a re-analysis of the deposited data

How the results depend on the processing

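The count of 5 region pairs became 3 with total cis reads as library size (2 higher, 1 lower), 1 with gene desert reads, 15 with DESeq2 (13 higher, 2 lower), 3 in the 4 libraries alone, 11 with distance decay removed, 9 over 50 kb, 17 with each pair counted once (limma; 6 higher, 11 lower), 8 without REV 27 and 8 without the top pair of each region pair (the last 2 added after seeing the data). Leaving out 1 library gave 0 to 21. None of the 5 called region pairs or of the first 10 higher and 10 lower primer pairs turned its sign under these settings. Among the region pairs described without a call, averaging log2 values over pairs (limma) turned the sum of the 3'RR and near distal V genes from -0.31 to 0.44, the far distal V genes with themselves from 0.18 to -0.05, the proximal V genes with themselves from 0.26 to -0.09 and D-J with the proximal V genes from 0.00 to -0.63. Igh pairs, 0 in the fit, numbered 4 with total reads, 10 with desert reads, 295 with DESeq2, 2 with distance decay removed and 0 to 3800 without 1 library. Desert pairs numbered 39, 40 and 55 with total reads, desert reads and DESeq2, and 0 to 99 without 1 library. Igh fragments to the desert numbered 7 with DESeq2, 1 in the 4 libraries and 0 to 24 without 1 library. Replicate numbers shared no deviations between the groups (correlation -0.03); with the replicate block 5 region pairs, 2 desert pairs and 2 fragments were called. The share of reads over 500 kb ranged from -0.46 to 4.62 points without 1 library, reversed without pro-B replicate 2. The cause of these shifts was not tested. Gene desert scaling moved the median of all Igh pairs from 0.03 to 0.19. At this depth 716 Igh pairs and most desert pairs had too few reads to test.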

Other observations

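A few pairs and fragments stood far from their group. FOR 451 x REV 300, between the middle and near distal V genes, had 44460 reads in pro-B replicate 2 against 74 in pro-B replicate 1 and 199 and 59 in MEF. Of the Igh reads ligated to the gene desert, FOR 817 alone held 60.1% and 41.3% in the pro-B libraries and 83.3% and 76.4% in MEF. REV 44 (114539129 to 114547720), a constant region fragment, shared 24936 and 16875 CPM with the rest of the constant region in pro-B cells against 10863 and 7696 in MEF, and 2798 and 3131 CPM with the 3'RR against 637 and 514. Its contacts with the far distal V genes overlapped between the groups, at 312 and 375 CPM against 345 and 260.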
